A study of Mus musculus with 13 samples.

Results

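In the mouse genome, 1075 regions held a binding summit of EGFP-tagged BLIMP1 in all 6 cell types examined. They were 1075 of 152528 regions made from all 12 chromatin immunoprecipitation (ChIP-seq) libraries, and 1075 of the 41160 regions bound in at least 1 cell type. A region was made by joining summits of any libraries that lay at most 200 bp apart on chromosomes 1 to 19, and a cell type counted as binding it when each of its 2 libraries had a summit there. The members were thus chosen by the presence of summits, so their presence in every library is a description and not a finding.

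All cells were C57BL/6 and homozygous for an EGFP knock-in that tags the N terminus of BLIMP1, and an antibody to GFP was used in each ChIP library, so no group lacks the tag. Mouse primordial germ cell-like cells (PGCLC) came from EGFP-Blimp1 knock-in embryonic stem cell lines by way of epiblast-like cells induced for 36 h. The d2 PGCLC were grown for 2 days with LIF and 500 ng/mL BMP4 and sorted for KIT. The d6 PGCLC were grown for 6 days with LIF, BMP4, 500 ng/mL BMP8a, 100 ng/mL SCF and 50 ng/mL EGF and sorted for SSEA1 and INTEGRINβ-3. Gonadal primordial germ cells (PGC) at E12.5 were sorted for SSEA1 from embryos made by intracytoplasmic sperm injection and embryo transfer, with 1 library from males and 1 from females, which are used here as the 2 libraries of 1 cell type. Intestinal epithelium came from E16.5 small intestine below the upper duodenum and was sorted for GFP and EPCAM. Photoreceptor precursors came from P4 retina, sorted for GFP. Plasmablasts were B cells stimulated for 3 days with 2 ng/mL IL-4 and 10 ng/mL LPS, sorted for GFP and CD138. Each cell type had 2 libraries. Whether replicates are separate animals or cultures is not in the labels, and no expression data were at hand to check the cell types against their markers.

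BLIMP1, the product of Prdm1, is a zinc-finger protein with a PR domain that binds DNA and brings co-repressors to its target genes. It is known for driving B cells into plasma cells, for setting the primordial germ cell fate, for holding back the adult programme in the fetal gut and for keeping photoreceptor precursors from becoming bipolar cells. Its known recognition sequence contains the core GNGAAAG, which resembles the elements read by interferon regulatory factors, and genes of MHC class I antigen presentation are among its known targets.

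Promoter sequences are shown because they let the summits be read against the DNA. Below are the 6 RefSeq promoters (GRCm38.p6, which has the coordinates of mm10) that contain the summits of all 12 libraries and in which those summits lie closest together. Each sequence runs 5′ to 3′ on the gene's own strand from 250 bases before to 50 bases after the start site, and capitals mark GNGAAAG or its reverse complement CTTTCNC.
Zc3h11a: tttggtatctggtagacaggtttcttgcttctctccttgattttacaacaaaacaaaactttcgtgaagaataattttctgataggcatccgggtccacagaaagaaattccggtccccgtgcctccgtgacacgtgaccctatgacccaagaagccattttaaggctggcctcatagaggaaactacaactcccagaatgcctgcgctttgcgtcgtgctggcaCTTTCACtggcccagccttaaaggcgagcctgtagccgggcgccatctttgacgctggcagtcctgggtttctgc
Rfx5: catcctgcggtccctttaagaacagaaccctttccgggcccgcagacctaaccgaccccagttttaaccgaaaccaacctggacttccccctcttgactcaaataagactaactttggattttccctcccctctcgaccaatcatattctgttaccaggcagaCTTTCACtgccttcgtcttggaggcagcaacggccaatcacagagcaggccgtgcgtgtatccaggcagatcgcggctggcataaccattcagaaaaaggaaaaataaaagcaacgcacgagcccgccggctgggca
Gm39859: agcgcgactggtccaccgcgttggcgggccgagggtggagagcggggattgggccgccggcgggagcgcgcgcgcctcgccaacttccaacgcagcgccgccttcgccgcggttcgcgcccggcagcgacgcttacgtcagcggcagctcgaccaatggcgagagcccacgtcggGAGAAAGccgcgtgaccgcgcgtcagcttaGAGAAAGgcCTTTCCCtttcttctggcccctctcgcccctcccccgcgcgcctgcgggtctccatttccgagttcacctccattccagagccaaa
Plekha3: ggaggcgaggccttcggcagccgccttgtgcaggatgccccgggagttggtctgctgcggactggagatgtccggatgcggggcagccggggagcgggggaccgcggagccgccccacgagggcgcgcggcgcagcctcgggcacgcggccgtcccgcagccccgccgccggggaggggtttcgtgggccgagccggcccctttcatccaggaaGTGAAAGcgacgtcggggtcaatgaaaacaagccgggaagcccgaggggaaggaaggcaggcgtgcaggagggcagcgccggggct
Oxsr1: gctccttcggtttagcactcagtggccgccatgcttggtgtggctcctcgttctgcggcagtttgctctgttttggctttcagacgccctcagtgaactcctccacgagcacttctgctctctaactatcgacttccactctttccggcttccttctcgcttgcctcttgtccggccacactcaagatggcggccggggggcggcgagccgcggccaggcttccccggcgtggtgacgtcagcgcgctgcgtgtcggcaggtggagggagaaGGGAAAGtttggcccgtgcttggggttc
Aars2: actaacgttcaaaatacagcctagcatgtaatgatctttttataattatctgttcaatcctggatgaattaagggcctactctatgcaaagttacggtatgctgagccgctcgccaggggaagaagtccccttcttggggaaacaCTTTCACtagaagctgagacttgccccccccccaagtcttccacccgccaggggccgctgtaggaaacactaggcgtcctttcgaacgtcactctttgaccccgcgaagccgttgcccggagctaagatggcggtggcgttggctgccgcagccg
Zc3h11a encodes a zinc-finger protein of messenger RNA export, and its promoter lies at chr1:133661350-133661649 on the minus strand. The 12 summits fell between 42 and 15 bp upstream of its start site, and the centre of the single motif lay 5 bp from their median. Rfx5 encodes a subunit of the factor that switches on MHC genes, and its promoter is chr3:94953858-94954157 on the plus strand. Its 12 summits fell between 100 and 64 bp upstream of the start site, again with the motif centre 5 bp from the median. In both promoters the motif is the reverse complement CTTTCAC.

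Gm39859 is a long noncoding RNA gene whose promoter lies at chr2:75658888-75659187 on the minus strand, beside the start of Hnrnpa3, which encodes an RNA-binding protein. The promoter holds 3 motif matches, and the nearest lay 2 bp from the median summit. Plekha3 encodes a lipid-binding adaptor of the Golgi, with its promoter at chr2:76675065-76675364 on the plus strand. Its motif lay 27 bp from the median summit, the widest of the 6 distances. Oxsr1 encodes a kinase of the oxidative and osmotic stress response, with its promoter at chr9:119322378-119322677 on the minus strand, and there all 12 summits fell between 2 and 46 bp into the transcribed side. Aars2 encodes the mitochondrial alanyl-tRNA synthetase, with its promoter at chr17:45506582-45506881 on the plus strand and its motif 25.5 bp from the median summit. These 6 were chosen for their close summits, not for holding the motif.

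Across all promoters the same sequence was common where all 6 cell types had a summit. The median summit of a shared region fell in 195 of 31396 RefSeq promoters (0.621%), which belonged to 181 genes and 155 regions, since neighbouring genes and alternative starts share regions. GNGAAAG or its reverse complement was present in 152 of these 195 promoters (77.9%, 95% interval 71.5% to 83.6%), against 31.2% of the 3942 promoters that held another bound region and 22.7% of all 31396 promoters. The longer form AGNGAAAG, which contains GNGAAAG, was present in 51.8% of promoters with a shared region, against 10.9% of those with another bound region and 8.63% of all. The shorter GAAAG, contained in both, was present in 94.9%, 59.0% and 57.3% of the same 3 sets. A match says only that these letters are in the window. The interval treats the 195 promoters as independent, although several share a region and the same motif match.

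The share grew with the number of cell types. GNGAAAG was found in 25.8% of 2912 promoters with a region bound in 1 cell type, 36.8% of 612 in 2 cell types, 49.8% of 209 in 3, 63.8% of 94 in 4, 76.5% of 115 in 5 and 77.9% of 195 in 6. The intervals of the classes bound in 5 and 6 cell types overlap (67.7% to 83.9% in 5), so the 2 classes were not told apart. The share with a motif centre within 25 bp of the median summit was 5.91%, 7.84%, 10.0%, 30.9%, 42.6% and 52.3% in the same 6 classes. In the promoters with a match, the median distance from the nearest motif to the summit was 14.5 bp for regions in all 6 cell types, against 58.5 bp for regions in 1. The median summit rests on at least 12 summits in shared regions and on as few as 2 in regions of 1 cell type. It is thus less exactly placed in the lower classes, and how much of the difference in distance comes from this was not tested. The base composition of these promoters was close, with a median GC content of 61.7% and 20 CpG for shared regions, against 61.7% and 22 CpG for other bound regions, while all promoters had 53% and 7 CpG.

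**Figure D1:**
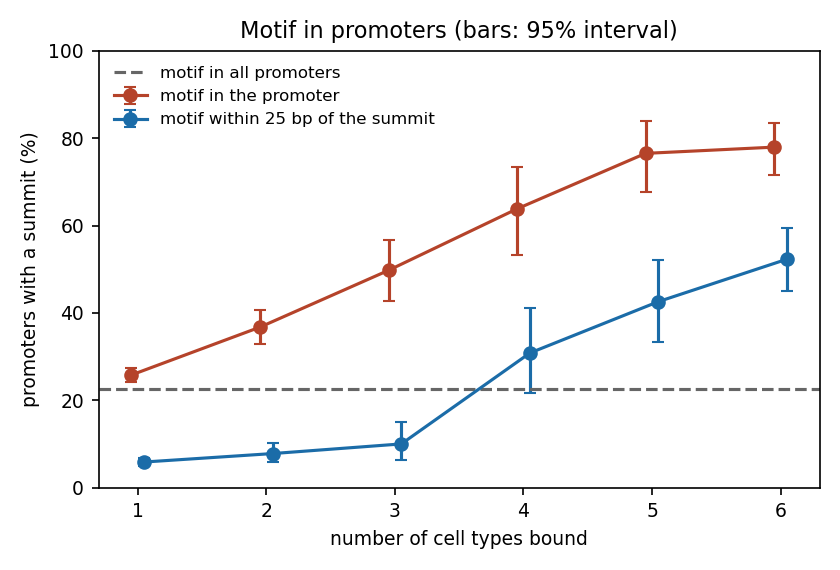
Share of promoters with a summit (y axis, %) that hold the motif anywhere in the promoter (red) or within 25 bp of the median summit (blue), by the number of cell types in which the region was bound (x axis). Bars are exact 95% binomial intervals and the dashed line is the share of all promoters with the motif, 22.7%. Both shares are highest for 6 cell types and lowest for 1. The median summit rests on more summits where more cell types are bound, so the blue shares are not measured alike.

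Of the regions bound in 1 cell type, 58.2% were plasmablast regions, so the comparison was repeated inside each cell type. Here the promoters with a shared region, 77.9% of which held GNGAAAG, were set against the promoters with any other region bound in that cell type. The other promoters held it in 55.8% of 260 for E12.5 PGC, 54.7% of 386 for d2 PGCLC, 54.2% of 456 for d6 PGCLC, 49.1% of 436 for intestinal epithelium, 47.3% of 769 for photoreceptor precursors and 29.7% of 3407 for plasmablasts. The interval of the shared regions, from 71.5% upward, lies above each of these 6 shares, but it counts promoters that share a region as independent. A motif within 25 bp of the summit was present in 52.3% of promoters with a shared region, against 14.0% to 26.2% of the other promoters in the 5 cell types apart from plasmablasts, and 7.34% in plasmablasts. Here too the other regions could hold fewer summits, so their median summit is less exactly placed.

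The shared regions were a different share of the binding in each cell type. They made up 22.1% of the 4870 regions bound in intestinal epithelium, 14.3% of 7535 in E12.5 PGC, 13.9% of 7732 in photoreceptor precursors, 9.57% of 11234 in d6 PGCLC, 9.16% of 11730 in d2 PGCLC and 4.72% of 22753 in plasmablasts. The order is set by the number of regions bound, since the members are the same in each. The libraries held between 7866 and 75237 summits on chromosomes 1 to 19, and neither read depth nor calling threshold was given in the sources used here. No library copied another: the most summit positions that any pair of libraries shared exactly was 242.

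By the number of cell types, 29216 regions were bound in 1, 5415 in 2, 3295 in 3, 1322 in 4, 837 in 5 and 1075 in all 6. Just outside the rule stood 476 regions with a summit in 11 of 12 libraries. The missing library was intestinal epithelium replicate 1 in 93 of them and photoreceptor precursor replicate 1 in 87, the 2 libraries with the fewest summits. d2 PGCLC replicate 2 was missing in 9. Of the 837 regions bound in 5 cell types, 364 lacked photoreceptor precursors and 204 lacked intestinal epithelium. Just inside the joining distance were 123 members in which the gap between neighbouring summits came within 50 bp of the limit. Just outside it were 78 pairs of regions, up to 100 bp beyond the limit, that together held all 12 libraries. Exactly 1 summit of every library was present in 973 members, and the other 102 held up to 21 summits.

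**Figure D2:**
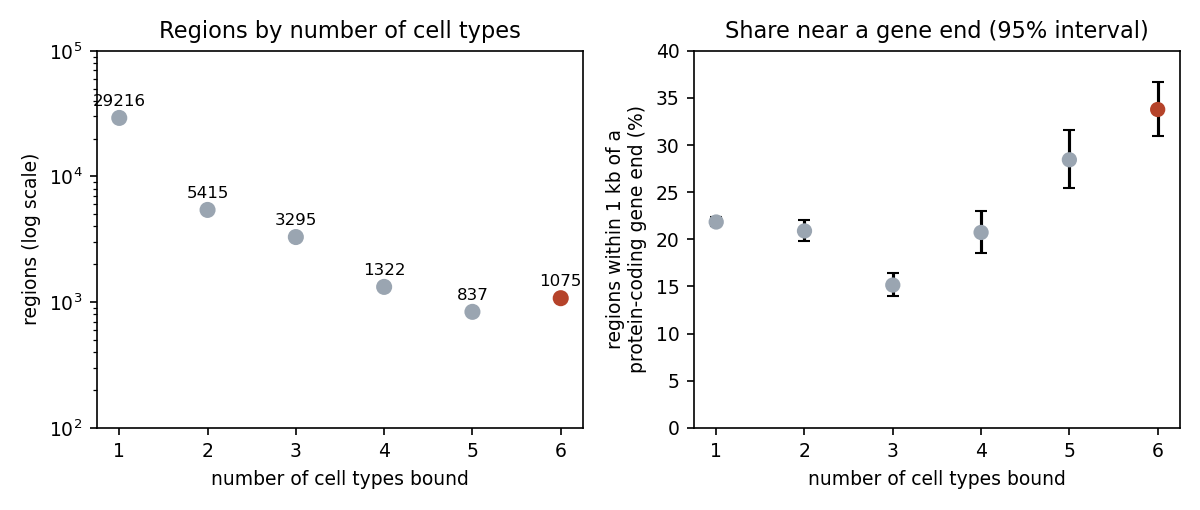
Number of regions (left, log scale) and share of regions whose median summit lay within 1 kb of an end of a protein-coding gene (right, %, with exact 95% binomial intervals), by the number of cell types bound (x axis). Regions bound in all 6 cell types are red. They number 1075, more than the 837 bound in 5, and 33.8% lay near a gene end.

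A large group of the shared regions lay at gene ends, and the rest lay away from them. Within 1 kb of an end of a protein-coding gene were 363 regions (33.8%, 95% interval 30.9% to 36.7%). A further 377 (35.1%) lay inside a gene away from its ends, and 335 (31.2%) lay between genes. Being away from the ends does not mean being away from start sites. One of those inside genes, in Rgl1, was 108513 bp from an end but 58 bp upstream of a listed start. Of the regions bound in 5 cell types, 28.4% lay near an end (25.4% to 31.6%), so the intervals overlap. The share was 21.8% for regions in 1 cell type, 20.9% in 2, 15.1% in 3 and 20.7% in 4. The median distance to the nearest end was 5848 bp for shared regions, against 6788 bp for those in 5 cell types and 10426 bp for those in 1.

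Within each cell type the picture depended on the cell type. Near an end lay 33.8% of shared regions, against 11% of the other regions of E12.5 PGC, 11.5% for d2 PGCLC, 12.9% for d6 PGCLC, 21.6% for photoreceptor precursors and 24.3% for intestinal epithelium. In plasmablasts it was 33.8% of shared regions against 31.5% of the 21678 others, whose interval of 30.8% to 32.1% overlaps that of the shared regions. The interval of the shared regions thus lay above the share of the other regions in 5 cell types and contained it in plasmablasts. Members on 1 chromosome or near 1 gene are not independent, and the intervals cover counting error only.

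Near genes, the regions gathered around start sites. Of the 363, 277 were near a start and no far end, 12 near a far end and no start, 11 near both and 63 near genes whose strand the promoter table does not give. Of the 1052 members outside chromosome 18, which the promoter table does not cover, 339 (32.2%) lay within 1 kb of a listed start site. Not all of them are among the 363, since a listed start can lie inside a gene. The 339 were split evenly, with 171 upstream and 168 at or downstream of it, and a median of -2.5 bp (quartiles -165 and 232.25 bp). Within 100 bp of a start site lay 110, and within 300 bp lay 218. Starts of at least 2 genes were within 1 kb of 46 members, as at pairs of genes that point away from each other.

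**Figure D3:**
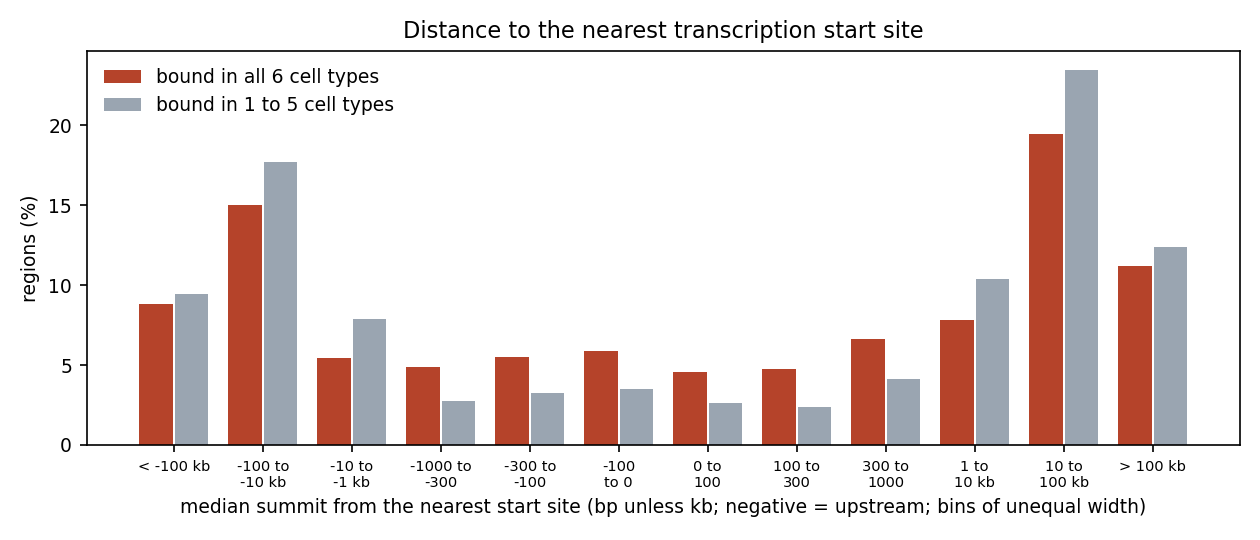
Share of regions (y axis, %) by the signed distance of their median summit to the nearest start site (x axis, bins of unequal width, negative upstream), for regions bound in all 6 cell types (red, n = 1052) and in 1 to 5 cell types (grey, n = 38803). In each bin within 1 kb the red bar is the higher, such as 5.89% against 3.49% in the 100 bp upstream of the start. Regions in 5 cell types, taken by themselves, were above the shared regions at -1000 to -300 bp (5.62% against 4.85%). They were also above at -300 to -100 bp (5.62% against 5.51%) and below in the other bins within 1 kb.

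By gene, 430 of 20665 protein-coding genes had a shared region within 1 kb of an end, which is 2.08%, and 688 (3.33%) had one within 5 kb. An end here is an outermost coordinate of a gene, so a region at a start site away from the ends is not counted. Rfx5 and Aars2, whose promoters are shown above, are thus not among the 430. These shares are the background for each gene group below, which is counted in the same way. Of 30 gene lists, 20 held at least 1 such gene, and the 34 different genes they held lay near 32 regions.

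The group with the most was MHC class I antigen processing and presentation. Of its 20 genes, 9 (45%) had a shared region within 1 kb, against the background of 2.08%, and these genes lay near 8 regions because Tap1 and Psmb9 have the same one. Psmb8 had a region within 5 kb. Counting any bound region within 1 kb, shared or not, the list had 10 of 20 genes for E12.5 PGC (background 5.81%), 13 for d2 PGCLC (8.35%), 12 for d6 PGCLC (8.95%), 12 for intestinal epithelium (7.06%), 10 for photoreceptor precursors (9.56%) and 19 for plasmablasts (34.6%). The list was chosen with such results known, so the count is a description.

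The 9 genes cover the steps by which a cell shows fragments of its own proteins to T cells. Nlrc5 is the activator that switches on MHC class I genes. Psmb9 and Psmb10 are catalytic subunits of the immunoproteasome, and Psme2 is part of its activator cap. Tap1 and Tap2 form the pump that carries peptides into the endoplasmic reticulum, Erap1 trims them there, and Tapbp and Tapbpl help load and edit them.

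Tap2 lies at chr17:34204479-34216321, and its shared region at chr17:34204438-34204544 spans its lower-coordinate end. Counted in bp into the gene from that end, with negative values outside it, the summits lay at 65 and -41 for d2 PGCLC, 6 and 56 for d6 PGCLC, 19 and 24 for E12.5 PGC, -16 and -35 for intestinal epithelium, 54 and 58 for photoreceptor precursors, and -5 and -8 for plasmablasts. All 12 fell within 106 bp. Replicates lay within 5 bp of each other in E12.5 PGC, photoreceptor precursors and plasmablasts, but 106 bp apart in d2 PGCLC.

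At Nlrc5 (chr8:94434335-94527272) the summits lay at 126 and 15 bp into the gene from its lower-coordinate end for d2 PGCLC, -12 and 88 for d6 PGCLC, 24 and 69 for E12.5 PGC, 54 and 38 for intestinal epithelium, 117 and -26 for photoreceptor precursors, and 27 and 93 for plasmablasts. Here replicates differed by up to 143 bp, nearly as much as the whole span of 152 bp, so the cell types could not be told apart by position. The region of Tap1 and Psmb9, chr17:34186762-34187193, was wide, with a span of 431 bp and a median 314.5 bp inside Psmb9 and 540.5 bp outside Tap1. At Tapbp the 12 summits lay 110 to 210 bp inside the start.

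Among 40 interferon-induced genes, 3 (7.5%) had a shared region within 1 kb, Trim21 and Gbp2 among them. Trim21 encodes a cytosolic antibody receptor and ubiquitin ligase, and its 12 summits lay from -32 to 47 bp around its start, with no GNGAAAG in its promoter. Gbp2 encodes a guanylate-binding protein that acts against microbes in the cytosol, and its region was farther out, with a median 497.5 bp upstream. A list of 12 genes held the interferon regulatory factors Irf1 to Irf9 and 3 genes of IRF2 partners. None of the factors had a shared region within 1 kb, and 1 partner gene, Irf2bp1, did, with all 12 summits 25 to 75 bp upstream of the start. Irf1, Ciita and Socs1 had no shared region within 5 kb, and the nearest to Ciita, the activator of MHC class II genes and a known BLIMP1 target in B cells, was 613038 bp away.

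Of the 20 immediate-early and AP-1 genes, 2 had a region, Klf6 and Myc. Myc, a driver of cell growth and a known BLIMP1 target in B cells, lies at chr15:61985341-61990361. From its lower-coordinate end its summits lay at -249 and -229 bp for d2 PGCLC, -197 and -227 for d6 PGCLC, -246 and -206 for E12.5 PGC, -300 and -271 for intestinal epithelium, -270 and -224 for photoreceptor precursors, and -263 and -254 for plasmablasts. The 12 positions spanned 103 bp, and the cell types overlapped. Other known targets from B cells had none nearby: Pax5, a B cell identity factor, Bcl6, the germinal centre repressor, and Id3 had no shared region within 5 kb.

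Prdm1 itself had a shared region 1022 bp outside its start, just beyond the 1 kb limit. From the start the summits lay at -1011 and -1012 bp for d2 PGCLC, -1025 and -1014 for d6 PGCLC, -1023 and -1020 for E12.5 PGC, -1042 and -1078 for intestinal epithelium, -1047 and -1021 for photoreceptor precursors, and -1053 and -1021 for plasmablasts. They spanned 67 bp, and the 6 germ-lineage summits 14 bp. In the PRDM family of 15 genes, Prdm1 and Prdm16 had a region within 5 kb and none within 1 kb.

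Of a partial list of 16 heat shock genes and their regulators, 3 (18.8%) had regions, Hspe1, Hspd1 and Hsp90ab1, and Hspb6, which was not listed, had one too. Hspe1 and Hspd1 encode the mitochondrial co-chaperonin and chaperonin, stand head to head and share 1 region, chr1:55088027-55088281, whose median lay 75 bp upstream of Hspe1. Trib3, a pseudokinase of the stress response, had 1 region 444 to 501 bp inside its start and another beyond its far end, at -4985.5 bp. The latter lay much nearer to another gene, 14.5 bp upstream of a start of Rbck1. In that first region the summits were within 57 bp, and replicates lay 1 bp apart in plasmablasts and 27 bp apart in photoreceptor precursors. It was the single gene with a region among 22 of the integrated stress and unfolded protein response.

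Other lists held 1 or 2 genes each, and these counts were not tested against the background of 2.08%. With 1 gene were lists of 31 cell cycle, 31 WNT and 31 BMP and TGF-beta genes (3.23% each). Also with 1 were lists of 27 growth factor (3.70%), 25 polycomb and trithorax (4%), 24 p53 and apoptosis (4.17%) and 19 clock genes (5.26%). Lists of 33 ubiquitin ligase (6.06%), 31 oxidative phosphorylation (6.45%), 26 nuclear factor I, POU and SOX (7.69%) and 22 KLF and SP genes (9.09%) held 2. Nfix and Pou3f3, both developmental transcription factors, had 2 regions each within 5 kb of their start. The 12 summits in the inner Nfix region lay 573 to 663 bp inside the start. Among cell death genes, Bcl2l11, which encodes the death-inducing protein BIM, had all summits from -36 to 45 bp around its start, with GNGAAAG 1 bp from their median. Cox10, an enzyme of haem A synthesis, had its 12 summits 52 to 135 bp upstream, with the motif 4.5 bp from the median. Nr1d2, a clock repressor, had its summits 94 to 229 bp upstream and the motif 8 bp away. Other genes named in this report varied more. The motif lay 6 bp from the median summit at Maats1, 6.5 bp at Erap1 and 26 bp at Hspe1 and Hspd1. It lay 28.5 bp away at Irf2bp1 and 45.5 bp at Cul1. The promoters of Lin37, Hspb6 and Ube2b that held a shared summit had no match. Igf1r, the IGF1 receptor, had 1 region inside and 1 upstream of its start, and the upstream one was among the closely set, with the 12 summits within 37 bp. Cul1, a ubiquitin ligase scaffold, Smad4, the common BMP and TGF-beta mediator, Rb1, the cell cycle brake, Foxp1, Pcgf2, Bcl9l, Klf6 and Sp8 each had 1.

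**Figure D4:**
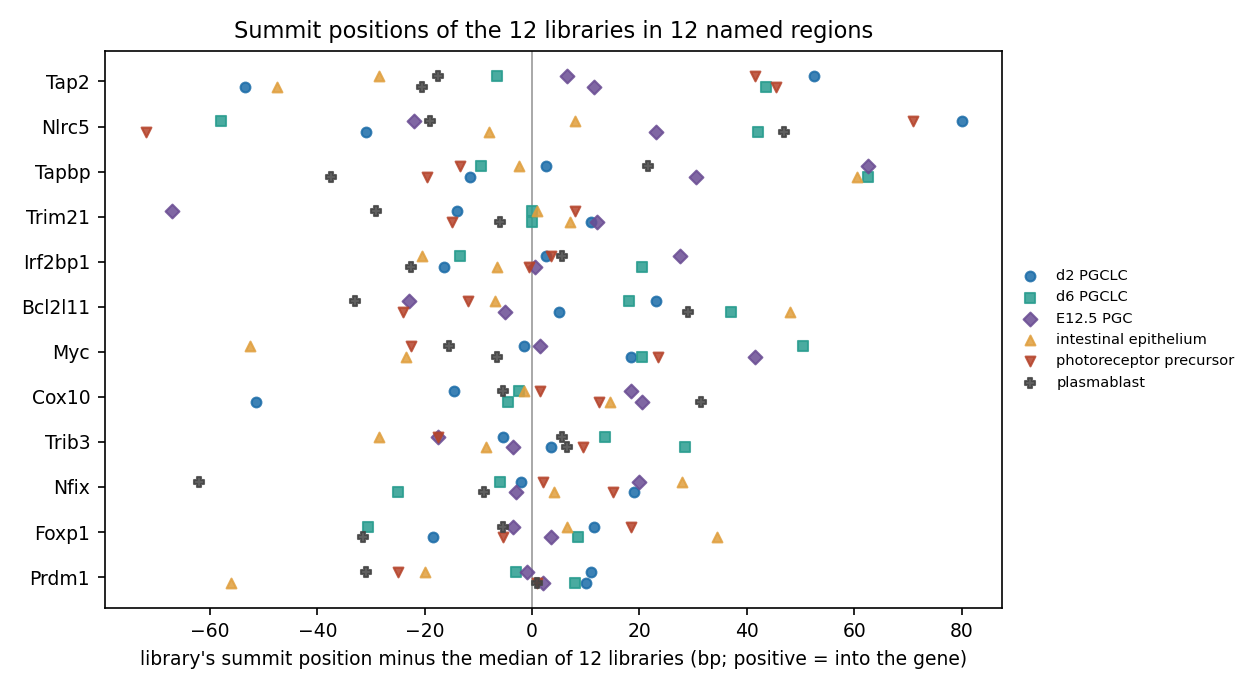
Position of each library's summit relative to the median of the 12 libraries (x axis, bp, positive into the gene) in 12 named regions (rows, by nearest gene). The symbol and colour give the cell type, and its 2 libraries sit slightly above and below the row. Prdm1, Foxp1 and Trib3 have narrow rows, with spans of 67, 66 and 57 bp, and Nlrc5 has a wide one of 152 bp.

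Lists named for single cell types, and the Hox genes, held at most 1 gene with a shared region within 1 kb. No gene within 1 kb was found among 20 germ cell genes, 24 intestinal genes, 24 retinal genes, 21 pluripotency genes and 39 Hox genes, and 1 of 20 B cell identity genes had one, Foxp1. Within 5 kb, where the background was 3.33%, there were also Gata4 of the intestinal list, Nr2e3 and Prdm16 of the retinal list, Prdm1 of the germ cell list, and Hoxc6 and Hoxc10. At a background of 2.08% a list of 20 to 40 genes is too short to tell 0 or 1 from the background. The same 20 germ cell genes had no bound region within 1 kb in any cell type apart from plasmablasts, with 3. Also at 0 within 1 kb of an end were the lists of 40 ribosomal protein genes and 22 Notch pathway genes. The same held for 20 histone deacetylase and co-repressor genes and 21 NF-kappaB pathway genes. A count of 0 does not cover listed start sites away from the gene ends: Rps2, of the ribosomal list, had a shared region 57.5 bp upstream of such a start. The lists are partial, and a count of 0 covers the listed genes alone: Rps28, a ribosomal protein gene not listed, had a shared region 15 bp from an end, Cyld, a deubiquitinase of the NF-kappaB pathway, 42 bp and Ctbp1, a co-repressor, 383 bp. The ribosomal protein genes Rpl29, Rps25 and Rps20, also not listed, had one at 609, 668.5 and 673 bp. These 6 unlisted genes, and Rps2, were chosen after their values were seen.

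The genes with the most shared regions had 2 within 5 kb, and none had 3. By the distance of the nearest, the first 10 were Maats1, Pou3f3, Lin37, Ube2b, Plgrkt, Hspb6, Cdkl3, Trib3, Nfix and Cox17. Several are neighbours that share regions: Maats1 and Cox17, Lin37 and Hspb6, and Ube2b and Cdkl3. Trib3 shares its outer region with Rbck1, which is not among the 10. Lin37, a subunit of the DREAM cell cycle repressor complex, and Hspb6, a small heat shock protein, lie side by side. Their regions, chr7:30552321-30552431 at Hspb6 and chr7:30559368-30559715 at Lin37, are at the outer ends of the pair. The first is also 11 bp from an end of Proser3. At the Hspb6 start the 12 summits lay 104 to 214 bp upstream. Cox17 encodes a copper chaperone of cytochrome oxidase, Ube2b a ubiquitin-conjugating enzyme and Plgrkt a plasminogen receptor, and in Plgrkt the 12 summits fell within 43 bp inside the start.

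Clusters of shared regions were few. Within 10 kb of another shared region were 40 members (3.72%, 2.67% to 5.03%), forming 19 clusters, of which 2 held 3 members and 17 a pair each. Of the regions bound in 5 cell types, 1.43% had another of their class within 10 kb, but a class with more regions has more neighbours, and the classes in 1 to 4 cell types ranged from 50.8% down to 3.93%. The median distance to the next shared region was 565586 bp. A region bound in any number of cell types lay within 10 kb of 72.5% of shared regions, against 64.0% of those in 5 cell types and 60.1% of those in 1, and the interval of the shared regions (69.7% to 75.1%) lies above both values. The 2 clusters of 3 were chr16:38341785-38353678, from Maats1 to Cox17, and chr2:98662638-98666883, 1030998 bp from the nearest gene end, that of Lrrc4c. The second lies in a stretch known for artefact signal in mouse ChIP-seq, and no list of such stretches was used here. Close pairs stood at chr8:93696498-93697051, 113159 bp from Gnao1, at chr9:116495626-116496382 near Rbms3, and at chr1:154786432-154787279 near Cacna1e.

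The chromosomes held between 23 and 98 members each. Over all 19 chromosomes, 1075 of 41160 bound regions were members. Chromosome 17 had the highest share, with 63 of its 1804 bound regions (3.49%), followed by chromosome 2 with 98 of 3156 (3.11%). Chromosome 18 had the lowest, with 23 of 1305 (1.76%). These are the extremes of 19 values, and their differences were not tested. Chromosome 17 carried 5.12% of protein-coding genes and 5.86% of members. Chromosome 7 carried 9.82% of protein-coding genes and 5.40% of members.

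Far from genes lay a further group. Between genes and over 100 kb from any end were 92 members (8.56%, 6.95% to 10.4%), while regions in 1 to 5 cell types had 7.03%, 8.73%, 11%, 7.34% and 7.89%. Set against the other regions of each cell type, it was 8.56% of shared regions against 12.8% for E12.5 PGC, 10.9% for d2 PGCLC, 9.19% for d6 PGCLC, 11.2% for photoreceptor precursors, 7.4% for intestinal epithelium and 3.93% for plasmablasts (3.67% to 4.19%). The share of shared regions was thus above that of other plasmablast regions and below that of other E12.5 PGC regions (12% to 13.6%) and other photoreceptor precursor regions, with intervals that do not overlap. Over 500 kb away lay 24. The 5 farthest were chr8:51900294-51900351, 1611355 bp from Aga, chr2:47278143-47278216 near Acvr2a, chr5:55638913-55638940 near Stim2, chr7:53367610-53367774 near 1700015G11Rik, and chr10:16079579-16079809 near Nmbr, the last at 1308154 bp. At this distance a nearest gene is a name for the place.

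Within the regions, the 12 libraries placed their summits close together. The span of the 12 positions had a median of 162 bp (quartiles 86.5 and 255 bp) and ran from 6 to 1008 bp. It was at most 50 bp in 77 members and over 200 bp in 409. The joining distance limits how far apart neighbouring summits can be, so the span partly reflects the rule. Members near a gene end had a median span of 165 bp, those inside genes 162 bp and those between genes 153 bp, with spans at most 50 bp in 4.13%, 6.63% and 11% of them.

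Of the 10 members with a span of at most 20 bp, 7 lay between genes, 3 inside genes and 0 within 1 kb of an end. The narrowest was chr9:3001413-3001419, where all 12 summits fell within 6 bp, and chr9:3025546-3025559 was next to it on the chromosome with 13 bp. Others were chr14:19417855-19417870, chr3:5860676-5860692 and chr2:98665117-98665134, which belongs to the cluster of 3 far from Lrrc4c. Inside genes were chr5:146261083-146261094 in Cdk8, chr16:11144097-11144110 in Zc3h7a and chr6:82923381-82923394 in Sema4f. The places at the start of chromosome 9, on chromosome 14 and in the chromosome 2 cluster lie where mouse ChIP-seq is known to give artefact signal. The input library was not analysed here, so whether their summits mark BLIMP1 binding was not tested. Without the 10, the share near a gene end was 34.1% and that with a neighbour within 10 kb 3.47%. The widest members were chr4:153856800-153857903 with 1008 bp, chr17:17624328-17625478 at Lnpep with 984 bp and chr10:121625799-121626640 at Xpot with 759 bp, and they held 14 to 18 summits.

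The joining distance limits how far apart summits of a region can lie, but it treats the 12 libraries alike and does not use which 2 belong to a cell type, so library pairs could be compared with each other. The median distance between the summits of 2 libraries was 26 bp for the plasmablast replicates, 28 bp for male and female E12.5 PGC, 32 bp for photoreceptor precursors, 34 bp for d2 PGCLC, 34 bp for d6 PGCLC and 37 bp for intestinal epithelium. Libraries of 2 cell types of the same lineage were 34 to 45 bp apart (24 pairs) and those of different lineages 31 to 48 bp (36 pairs). In the labels male and female E12.5 PGC are separate groups, so that pair comes from the rule used here. The mean over the 6 pairs within a cell type was 31.8 bp, against a median of 37.8 bp over all 10395 ways to pair the 12 libraries. No other pairing gave a lower mean (exact permutation test over libraries, one-sided, p = 9.6e-05, the smallest it can give). This holds for the mean and not for each pair. In plasmablasts, E12.5 PGC and photoreceptor precursors the replicates were closer to each other than to any other library. The d2 and d6 PGCLC replicates were no closer than d2 PGCLC replicate 1 and d6 PGCLC replicate 1, at 34 bp. Intestinal epithelium replicate 1 lay 34 bp from female E12.5 PGC, nearer than its own replicate.

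A difference by lineage was not detectable with 6 cell types. Cell types of the same lineage, germ or somatic, were on average 37.6 bp apart and those of different lineages 38.8 bp, a difference of -1.13 bp. The exact permutation test over the 10 splits of the 6 cell types in 3 and 3, one-sided, gave p = 0.3, and 0.1 is the smallest p this design allows. Among the libraries, d6 PGCLC replicate 2 had the widest distances, up to 48 bp from intestinal epithelium replicate 1, with 15.6% of its summits over 100 bp from the median of the region, against 5.49% in plasmablast replicate 1. The median distance of a library's summits from the median of the region was between 18.5 bp in plasmablast replicate 1 and 27 bp in d6 PGCLC replicate 2.

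**Figure D5:**
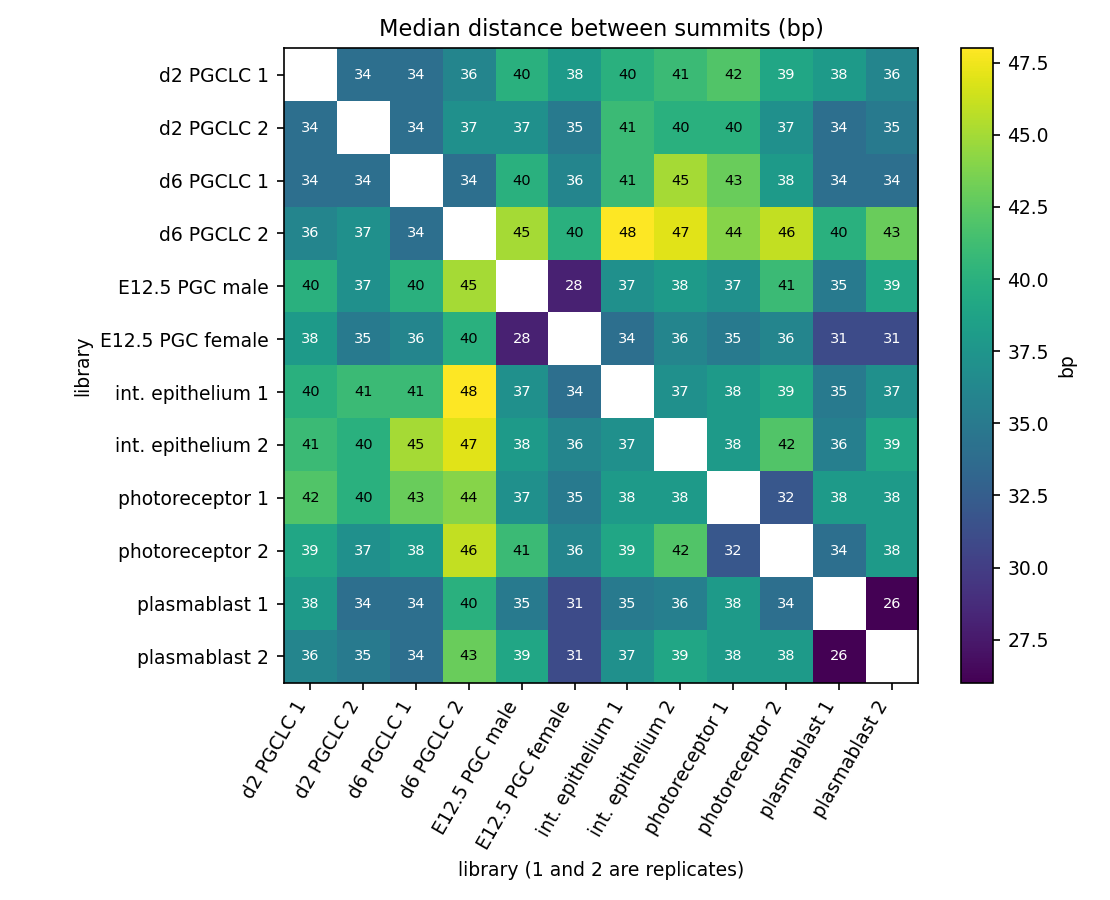
Median distance in bp between the summit positions of each pair of the 12 libraries over the 1075 shared regions (rows and columns, libraries; 1 and 2 are the replicates). The darkest cells are the plasmablast replicates at 26 bp and the E12.5 PGC libraries at 28 bp, and the row of d6 PGCLC replicate 2 is the brightest, reaching 48 bp.

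Of the microRNA genes, Mir203, known as a brake on stem-like growth in skin, lay 520.5 bp from a shared region. It is at chr12:112130880-112130955 on the plus strand, and its RefSeq mature sequences (GRCm38.p6) are shown with the seed, bases 2 to 8, in capitals.
mmu-miR-203-5p: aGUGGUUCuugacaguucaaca
mmu-miR-203-3p: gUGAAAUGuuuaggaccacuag
Mir8114 and Mir8098 lay closer to a shared region, at 143 and 210.5 bp.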

How the data were processed

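The deposited lists hold, for each of the 12 ChIP libraries, the chromosome and position of each summit, with no count, height or p-value. Reads were processed with MACS2 2.1, Bowtie 1.1.2, cutadapt 1.7.1 and Trim Galore 0.3.7 on mm10, per the submitters' processing notes. Not given in the sources used here are the calling threshold, its control, read depth and the first base number (0 or 1), which could shift positions by 1 bp. The input library was not analysed here.

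Summits on chromosomes 1 to 19 at most 200 bp apart were joined by single linkage, and a library's position in a region is the median of its summits there. Gene ends came from RefSeq (GRCm38.p6, 20665 protein-coding genes), and strand and start sites from RefSeq promoters, which cover 79.6% of these genes and not chromosome 18, so a gene whose end is named by coordinate had no listed promoter there. Exons were not used. Motifs were searched on both strands. The distance between libraries was the median over regions, tested by exact permutation of library pairings or of cell types. Intervals of shares are 95% Clopper-Pearson intervals for counting error alone. The joining of summits and the test of library pairings were tried on simulated data with widely spaced regions, an easier case than these data. The lineage test was not tried in this way. Python 3.11.15, numpy 2.4.6, pandas 2.3.3 and scipy 1.17.1 were used.

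Members and gene lists were chosen with earlier results of these data known. Named genes were the 10 with the most regions within 5 kb, up to 4 of each list, the 8 narrowest and 3 widest regions, the 5 largest clusters, the 5 regions farthest from genes, the 6 promoters with the closest summits and 15 fixed genes, not all of which are reported here. Replicate numbers do not link libraries across cell types in the labels. Alternatives covered the joining distance, either library in place of both, X and Y, each library left out, the gene window, the neighbour window and the motif.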

Additional observations from a re-analysis of the deposited data

Results flagged for a closer look

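Chromosomes X and Y were outside the main regions, and by the same rule they held 18 regions bound in all 6 cell types, all of them on X. Among them were regions at Usp27x (191.5 bp from a gene end) and Gripap1 (262.5 bp), and the widest distance was 303369 bp, from Eda2r. On unplaced contigs 1 further region held a summit of all 12 libraries, all within 14 bp, on a contig where single libraries had 1 to 10 summits. No ChIP control without the tag was at hand for either.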

How the results depend on the processing

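The number of regions was 839 with a joining distance of 100 bp, 529 with 50 bp and 1225 with 500 bp, and 2111 when 1 library per cell type sufficed. Genes near an end then numbered 200 with 50 bp and 891 with either library, and 688 with a 5 kb window. The share with a neighbour within 10 kb was 1.7% with 50 bp and 7.58% with either library, and 11.2% for a neighbour within 50 kb. The share near a gene end was 26.0% for a 500 bp window, 48.7% for 5 kb and 40.5% for genes of all kinds. The motif share was 51.8% for AGNGAAAG and 94.9% for GAAAG. Leaving out 1 library at a time gave 1076 to 1162 regions, 32.8% to 34.5% near an end, 430 to 475 genes, 3.46% to 4.24% with a neighbour, replicate distances of 31.0 to 33.2 bp, lineage differences of -1.56 to -0.71 bp and motif shares of 75.7% to 78.8%.

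With a replicate block, which pairs replicate 1 libraries with replicate 2 libraries in the 5 cell types with numbered replicates, the mean replicate distance was 32.6 bp, against a median of 37.4 bp over 120 pairings (exact permutation p = 0.0083, the smallest it can give). Over the 20 alternatives of the replicate comparison the exact permutation p ran from 9.6e-05 to 0.0083, and over the 18 of the lineage comparison from 0.2 to 0.3. Leaving out the narrowest regions, and the motif share under other joining distances and without single libraries, were added after seeing the data. Without read depth, a missing summit cannot be told apart from a shallow library.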
